A study of Homo sapiens with 4 samples.

Results

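Expression of the genes that build cholesterol and fatty acids was measured in MyLa and HH, human lines derived from cutaneous T cell lymphoma. MyLa is labelled as a line of mycosis fungoides, the commonest form of that lymphoma. Of 32 listed genes, 29 had a probe set, the group of oligonucleotides that reads a transcript on the array, annotated to that gene alone, and these genes held 64 of the array's 54675 probe sets. CYP51A1 and FADS1 appear only in probe sets annotated to several genes. The 5 such probe sets that hold any listed gene were not used, and FDFT1 was not analysed here. The rule that lists the genes uses no measured value, but the list was chosen with earlier results of these data known. Each line was grown for 40 hours in 0.1% serum, either without IL-32γ (control) or with IL-32γ, an isoform of the cytokine interleukin-32, at 5 ng/ml, and 1 array was hybridised per line and condition, 4 in all. Every array therefore comes from cells kept in low serum, and each line stands for the one tumour it was derived from.

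Cholesterol is made from acetyl-CoA through mevalonate, the farnesyl and squalene intermediates and lanosterol. The transcription factors SREBP-1 and SREBP-2, encoded by SREBF1 and SREBF2, are held in the endoplasmic reticulum by SCAP and the INSIG proteins when sterols are plentiful. When sterols run short, SCAP carries them to the Golgi, where proteases release the active factor, which raises transcription of enzymes of sterol and fatty acid synthesis. Dividing T cells are known to draw on this programme for their membranes.

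SREBPs bind the sterol regulatory element, often beside CCAAT boxes bound by NF-Y and GC boxes bound by SP1. The 250 bases before the annotated start, from RefSeq on GRCh38.p14, are shown for 6 members with a single annotated start that differed strongly between the lines (values further on), so that the elements can be read. They are written 5′ to 3′ on the strand of the gene, and capitals mark TCACNCCAC, the form of the sterol regulatory element searched for, and CCAAT, each on either strand (ATTGG is CCAAT on the other strand).
MVD (chr16:88663092-88663341, minus strand): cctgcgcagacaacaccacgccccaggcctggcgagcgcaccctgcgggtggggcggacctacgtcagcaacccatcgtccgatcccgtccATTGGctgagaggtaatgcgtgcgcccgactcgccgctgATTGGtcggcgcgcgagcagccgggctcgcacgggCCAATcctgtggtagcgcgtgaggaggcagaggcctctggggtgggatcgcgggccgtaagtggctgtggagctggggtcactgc
LSS (chr21:46228775-46229024, minus strand): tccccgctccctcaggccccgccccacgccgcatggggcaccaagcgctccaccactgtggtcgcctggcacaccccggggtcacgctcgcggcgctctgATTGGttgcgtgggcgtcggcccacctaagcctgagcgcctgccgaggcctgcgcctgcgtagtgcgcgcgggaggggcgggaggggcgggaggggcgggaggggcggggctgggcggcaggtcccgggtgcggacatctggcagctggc
INSIG1 (chr7:155297628-155297877, plus strand): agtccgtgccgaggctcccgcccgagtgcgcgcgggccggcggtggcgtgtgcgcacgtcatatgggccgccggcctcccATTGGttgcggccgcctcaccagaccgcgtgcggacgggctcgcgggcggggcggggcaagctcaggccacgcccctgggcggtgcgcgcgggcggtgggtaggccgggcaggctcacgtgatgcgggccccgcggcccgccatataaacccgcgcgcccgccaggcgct
SREBF1 (chr17:17836987-17837236, minus strand): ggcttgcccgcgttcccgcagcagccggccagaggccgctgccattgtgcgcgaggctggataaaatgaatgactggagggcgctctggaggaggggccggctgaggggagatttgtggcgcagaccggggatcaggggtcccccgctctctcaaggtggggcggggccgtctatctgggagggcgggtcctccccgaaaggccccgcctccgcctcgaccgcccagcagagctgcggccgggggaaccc
SREBF2 (chr22:41832855-41833104, plus strand): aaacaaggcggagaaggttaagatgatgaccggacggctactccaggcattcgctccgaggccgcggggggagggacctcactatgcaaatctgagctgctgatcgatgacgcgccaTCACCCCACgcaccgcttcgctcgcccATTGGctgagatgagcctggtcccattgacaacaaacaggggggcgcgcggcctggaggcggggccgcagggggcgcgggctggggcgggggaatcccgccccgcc
SCD (chr10:100346983-100347232, plus strand): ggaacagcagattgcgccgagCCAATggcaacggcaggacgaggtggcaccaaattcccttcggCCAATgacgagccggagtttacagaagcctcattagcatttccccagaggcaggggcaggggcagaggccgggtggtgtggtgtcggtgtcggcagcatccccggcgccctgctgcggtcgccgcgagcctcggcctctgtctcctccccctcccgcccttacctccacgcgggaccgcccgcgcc

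Among these, the sterol regulatory element TCACCCCAC stands in the promoter of SREBF2, starting 133 bases before the start, with a CCAAT box 106 bases before it. MVD holds 3 CCAAT boxes, SCD 2, LSS and INSIG1 1 each and SREBF1 none. The promoters shown were picked by name and include the 1 listed gene with TCACNCCAC. MVK, also higher in HH and with a single annotated start, holds 5 CCAAT boxes and is not shown. Windows were found for 28 of the 32 listed genes (none for ACAT2, FASN, FDFT1 and SQLE), and a gene was counted if any of its starts had the letters. TCACNCCAC lay in 1 of the 28, against 1.09% of the 9049 genes tested between the lines that had a window, and in 0.883% of all 35116 windows of the table. CCAAT lay in 19 of the 28 genes (67.9%), against 42.2% of the tested genes and 32% of all windows. The GC box GGGCGG lay in 27 of 28 genes (96.4%), against 73.5% and 42.6%. None of the 3 motifs overlapped another of them in the promoters shown. These are matches of letters, and a gene with several starts has more windows in which to match.

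Each probe set has a log2 expression value, and lower values than 5 were treated as not measured and set to 5 before differences were taken. The 4 arrays were alike in how many probe sets reached 5, from 23433 to 23686. T cell markers were checked: of 11 with a probe set, CD3D, CD3G, CD247, CD2, PTPRC and TRBC1 were measured on all 4 arrays, CD3E, CD4 and CD5 in HH alone, and CD7 and LCK on none. Among 15 myeloid, epithelial and fibroblast markers, ITGAM, CDH1, COL1A1 and COL3A1 were measured in MyLa, and the others lay below 5 in MyLa, among them CD14, EPCAM, KRT5, COL1A2 and DCN. The log2 summed level of the 5 fibroblast markers was 13.42 to 13.52 in MyLa and 5.55 to 6.13 in HH. For the epithelial markers it was 12.97 to 12.98 in MyLa and 4.57 to 4.58 in HH. For the myeloid markers it was 8.79 to 9.05 and 4.45. The probe set at the 5′ end of ACTB, a control for RNA integrity, read 10.12 (control) and 11.81 (IL-32γ) in MyLa and 12.69 and 13.58 in HH, while its 3′ partner lay between 15.07 and 15.27. It thus differed along both comparisons made here, and its part in the results was not tested, nor was that of the markers. The 4 B cell markers lay below 5 on all arrays, and in HH COL1A1 reached 5.66 on the IL-32γ array.

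**Figure D1:**
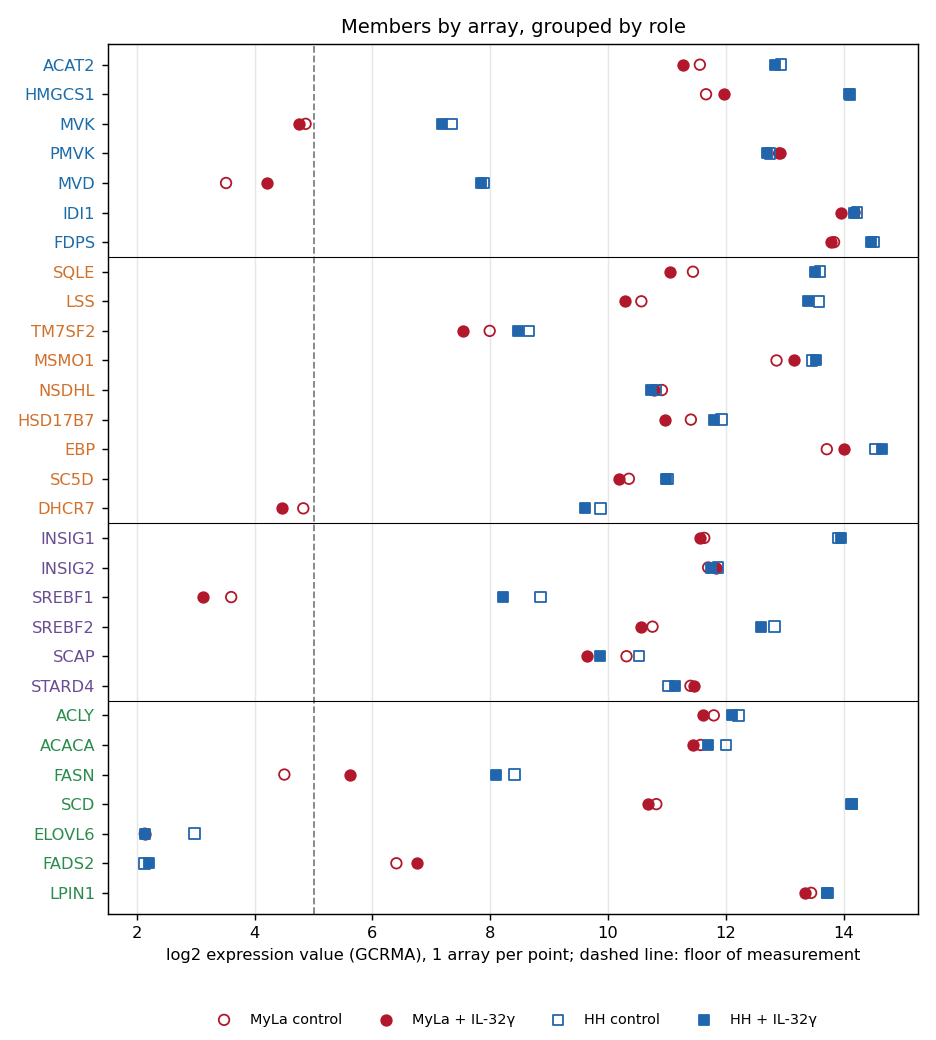
The log2 expression value (x axis) of each of the 29 members (rows, grouped by role) on each of the 4 arrays, with circles for MyLa, squares for HH, open for control and filled for IL-32γ. For DHCR7, SREBF1, MVD, SCD and LSS the red and blue pairs lie far apart, while open and filled symbols of a line lie close, and ELOVL6 is below the floor of 5 (dashed line) on all arrays.

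The comparison between the lines gave the widest differences. The 2 arrays of a line served as its replicates in limma fitted to 11010 genes, and a gene was called at a Benjamini-Hochberg adjusted p under 0.05 and a difference of 2-fold or more. Of the 28 members tested, 12 (42.9%) were higher in HH, where 16.8% of all genes tested were called that way. The 5′ ACTB control differed by -2.16 (log2, MyLa minus HH) and the middle ACTB probe set by -1.30. For GAPDH, a second control transcript, the 5′ probe set differed by -0.40. Only 1 member (3.57%) was higher in MyLa, against 18.7% of all genes. The median member difference, MyLa minus HH, was -0.73 (log2), against 0.03 over all genes tested. Both HH arrays lay above both MyLa arrays for 21 of 28 members, against 40.7% of genes, and the reverse held for 3, against 42.1%. A line's 2 arrays differ in IL-32γ, and no label says whether they were separate cultures, so the spread behind these tests holds the IL-32γ response and may otherwise be technical.

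Of 7 genes from acetyl-CoA to farnesyl diphosphate, 4 were higher in HH (57.1%, against 16.8% of all genes tested). HMGCS1, which makes HMG-CoA, read 11.66 and 11.96 in MyLa (control first, then IL-32γ, as in all pairs given here), and 14.11 and 14.10 in HH. Its level was thus higher in HH on both arrays, 4.89-fold (log2 difference -2.29 ± 0.14, limma SE; adjusted p = 0.00098). MVD, the decarboxylase that gives isopentenyl diphosphate, read 3.52 and 4.20 in MyLa, below the floor, against 7.89 and 7.84 in HH. This puts HH at least 7.28-fold higher (limma adjusted p = 0.00019). Mevalonate kinase, MVK, also lay below the floor in MyLa (4.87 and 4.75) and read 7.34 and 7.17 in HH, at least 4.78-fold higher. ACAT2, the cytosolic thiolase that joins acetyl-CoA units, read 11.56 and 11.27 in MyLa and 12.94 and 12.84 in HH, 2.78-fold higher in HH (limma adjusted p = 0.0032). The other genes of this stretch were closer between the lines. FDPS, farnesyl diphosphate synthase, read 13.84 and 13.79 in MyLa and 14.51 and 14.47 in HH, so the pairs did not overlap, but at 1.60-fold the difference was under the 2-fold minimum (limma adjusted p = 0.0076). The isomerase IDI1 (-0.12) and the kinase PMVK (0.19) had limma adjusted p of 0.43 and 0.16. The probe set of IDI1 is of a kind whose oligonucleotides can match other transcripts.

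Among 9 genes from squalene to cholesterol, 3 were higher in HH (33.3%, against 16.8% of all genes tested). DHCR7, which makes cholesterol from 7-dehydrocholesterol, had the widest difference of the members by the probe set standing for each gene and with values below 5 set to 5. With no floor SREBF1 (-5.17) lay just past it (-5.10). DHCR7 read 4.83 and 4.47 in MyLa, below the floor, against 9.87 and 9.61 in HH, at least 26.8-fold higher (limma adjusted p = 0.00013), and 2.21% of the genes tested had a lower MyLa minus HH difference. LSS, lanosterol synthase, which closes the sterol rings, read 10.57 and 10.29 in MyLa and 13.58 and 13.40 in HH, 8.34-fold higher in HH (log2 difference -3.06 ± 0.15, limma SE; adjusted p = 0.00052). Squalene epoxidase, SQLE, a rate-limiting step, read 11.44 and 11.05 against 13.60 and 13.52, 4.97-fold higher in HH (limma adjusted p = 0.0016). By the probe set standing for each gene, these 3 stood apart from the other 6, which differed by less than 2-fold. Another probe set of EBP gave 2.06-fold and was not called. With the mean of its probe sets SC5D differed by -1.07 (limma adjusted p = 0.064). TM7SF2 (-0.80), a sterol reductase, EBP (-0.73), a sterol isomerase, SC5D (-0.72), a desaturase, and HSD17B7 (-0.67), a ketoreductase, passed an adjusted p of 0.05 in limma (0.036, 0.019, 0.0097 and 0.047) but not the 2-fold minimum. MSMO1 (-0.49), which removes methyl groups from the sterol ring, had a limma adjusted p of 0.054 although both its HH values (13.47 and 13.53) were above both MyLa values (12.86 and 13.16). NSDHL, a dehydrogenase of the same steps, differed by 0.08 ± 0.11 (limma SE; adjusted p = 0.57), with values between 10.73 and 10.91 that overlapped. HSD17B7, like IDI1, was read by oligonucleotides that can match other transcripts.

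Of the 6 sterol sensing and transport genes, both SREBP genes and INSIG1 were higher in HH (50%, against 16.8% of all genes tested). SREBF1 read 3.60 and 3.13 in MyLa, below the floor, and 8.85 and 8.22 in HH, at least 11.6-fold higher (limma adjusted p = 0.0013). SREBF2 was measured in both lines, at 10.76 and 10.57 in MyLa and 12.83 and 12.60 in HH, 4.15-fold higher in HH (log2 difference -2.05 ± 0.14, limma SE; adjusted p = 0.0013). INSIG1, itself a known SREBP target whose product retains SCAP, read 11.63 and 11.55 in MyLa against 13.91 and 13.96 in HH, 5.07-fold higher (limma adjusted p = 0.00034). Its relative INSIG2 gave overlapping values, 11.70 and 11.83 in MyLa and 11.87 and 11.75 in HH, a difference of -0.04 ± 0.11 (limma SE; adjusted p = 0.76). SCAP differed by -0.22 ± 0.36 (limma SE; adjusted p = 0.63), a wide error because the 2 arrays of each line lay apart. STARD4, a cytosolic sterol carrier, was the 1 gene of this group above HH in MyLa on both arrays (11.40 and 11.46 against 11.03 and 11.13), by 0.35 (limma adjusted p = 0.049), under the 2-fold minimum.

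Of the 6 fatty acid and glycerolipid members tested, 2 were higher in HH (33.3%, against 16.8% of all genes tested). In MyLa 1 was higher (16.7%, near the 18.7% of all genes). Both HH arrays lay above both MyLa arrays for 5 (83.3%, against 40.7%). Stearoyl-CoA desaturase, SCD, which makes oleate, read 10.82 and 10.68 in MyLa and 14.13 and 14.15 in HH, 10.5-fold higher in HH (log2 difference -3.39 ± 0.10, limma SE; adjusted p = 0.00016). Fatty acid synthase, FASN, was below the floor on the MyLa control array (4.50), read 5.61 on the MyLa IL-32γ array, and lay at 8.42 and 8.10 in HH, 7.74-fold higher in HH (limma adjusted p = 0.0026). This fold is low by construction, since 1 of the MyLa arrays was set to the floor. FADS2, the delta-6 desaturase of polyunsaturated fatty acids, was the 1 member called higher in MyLa. It read 6.41 and 6.76 there and lay below the floor in HH (2.13 and 2.21), at least 2.99-fold higher in MyLa (limma adjusted p = 0.0033). The genes that supply and carboxylate acetyl-CoA differed little: ATP citrate lyase, ACLY, by -0.46 (limma adjusted p = 0.038) and acetyl-CoA carboxylase, ACACA, by -0.34 (0.14). LPIN1, a phosphatidate phosphatase, differed by -0.33 (limma adjusted p = 0.055). ELOVL6, an elongase of C16 fatty acids, had none of its 3 probe sets above the floor and was not tested.

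The gap between the lines was present in both conditions. On the control arrays alone MyLa minus HH was -2.45 for HMGCS1, -3.01 for LSS, -2.08 for SREBF2 and -3.32 for SCD, all measured on every array. On the IL-32γ arrays alone the same genes gave -2.13, -3.11, -2.03 and -3.46. Where MyLa was below the floor the difference is a bound. For DHCR7 it was -4.87 or lower on the control arrays and -4.61 or lower with IL-32γ, and for FASN it was -3.42 or lower on the control arrays. MVD, MVK, DHCR7 and SREBF1 reached 5 in HH alone, and FADS2 in MyLa alone. The other line, set to the floor on both arrays, added no spread to their tests. With no floor and no filter their limma adjusted p were 0.024 (MVD), 0.0088 (MVK), 0.0098 (DHCR7), 0.020 (SREBF1) and 0.0088 (FADS2). In that setting the limma adjusted p of LSS, measured on every array, also rose, from 0.00052 to 0.013.

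**Figure D2:**
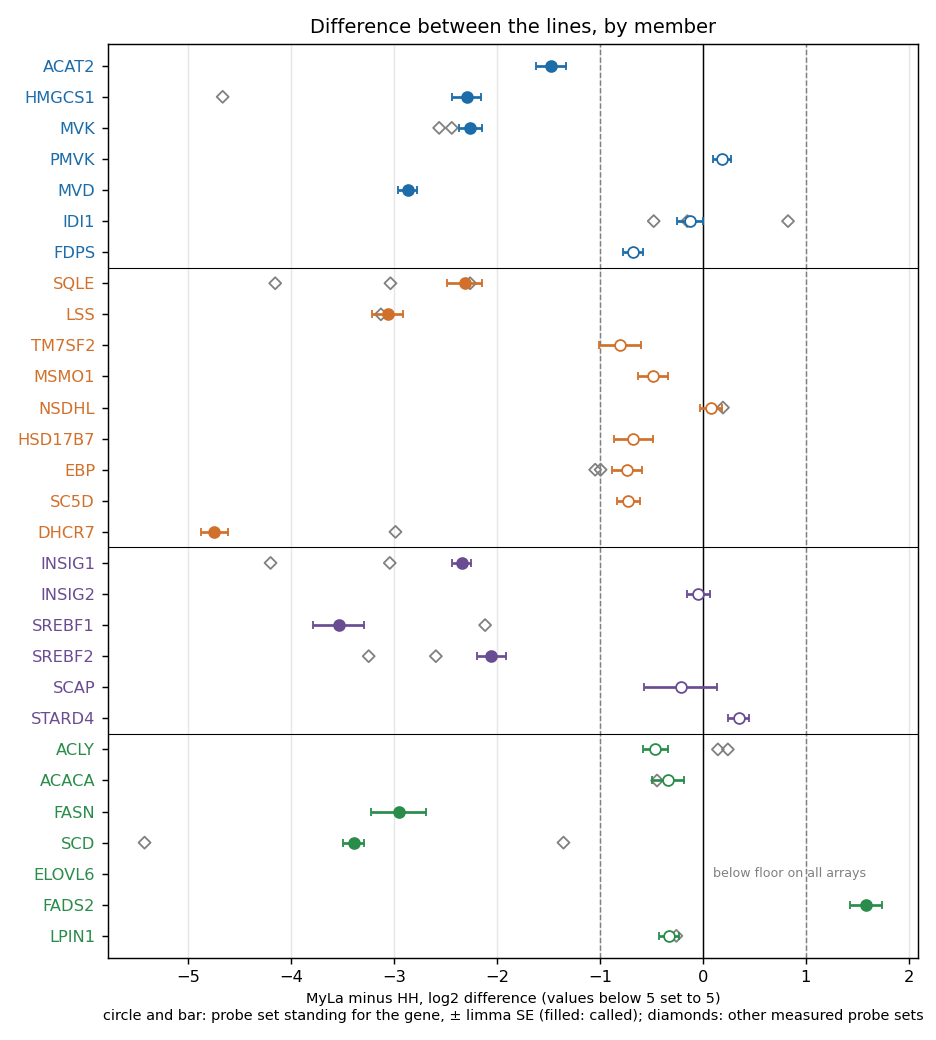
MyLa minus HH as a log2 difference (x axis) for each member (rows), with the probe set standing for the gene as a circle with its limma SE, filled where called, and other measured probe sets of the gene as diamonds. The 12 filled circles on the left are the members higher in HH, led by DHCR7, and FADS2 is the 1 filled circle on the right.

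Several probe sets read the same gene, and those of the called members gave the same direction. Of the 13 called members, 9 had another probe set that was measured, 15 in all, and 15 of 15 lay on the same side and were called in a limma fit over probe sets. Those of MVK, DHCR7, SREBF1 and SREBF2 and the dimmest fitted ones of SQLE and SCD were below 5 on both MyLa arrays. With values below 5 set to 5, these could only come out higher in HH. Those of HMGCS1, LSS and INSIG1 and the rest of SQLE and SCD were measured in MyLa. Over all 3907 called genes, 96.9% of 2811 other probe sets had the same direction and 75.0% were called. The size was less settled. In the members 11 of the 15 (73.3%) gave a wider difference than the probe set standing for the gene, with values below 5 set to 5, against 39.0% over all called genes. SCD's second probe set read 7.28 and 7.15 in MyLa and 12.40 and 12.87 in HH, 42.9-fold apart in place of 10.5-fold, while a dimmer one, below the floor in MyLa, gave at least 2.55-fold. For HMGCS1 the second gave 25.3-fold with its MyLa control value set to the floor (MyLa 4.89 and 5.98, HH 9.88 and 10.43), for INSIG1 the others gave 18.4-fold and 8.22-fold, and for SQLE up to 17.8-fold. The other probe sets of DHCR7 (at least 7.91-fold) and SREBF1 (at least 4.33-fold) lay below the floor in MyLa and give only bounds, which cannot be ranked against the first. The brightest probe set of a gene stands for it. Among members not called, the probe sets of ACLY disagreed in sign (-0.46, 0.24 and 0.15), as did those of IDI1 (from -0.48 to 0.83).

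**Figure D3:**
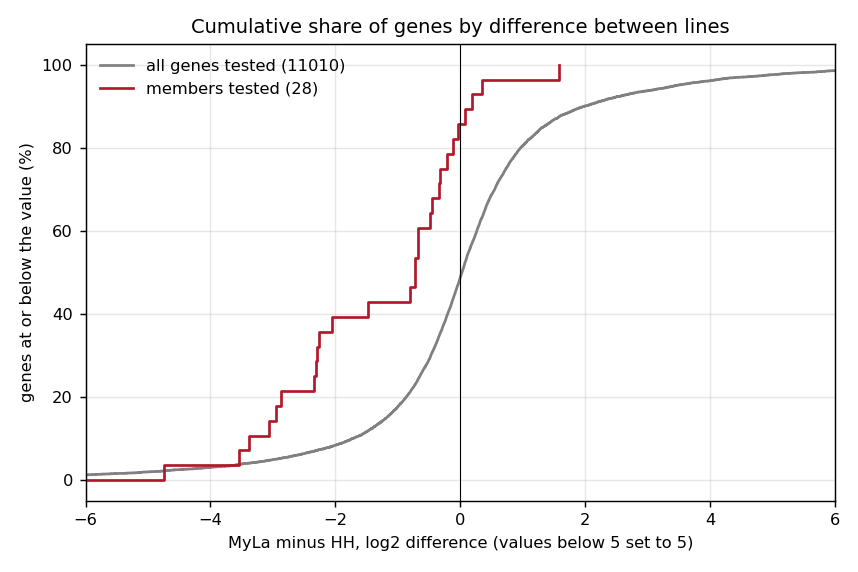
Percent of genes (y axis) whose MyLa minus HH log2 difference is at or below the value on the x axis, for the 28 members tested (red) and all 11010 genes tested (grey). The red steps lie left of the grey line over most of the range, with a median of -0.73 against 0.03, and end at FADS2 on the right.

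Neighbouring lipid genes, listed by function, were more evenly divided. Of 11 tested genes around sterol synthesis 2 were higher in HH and 1 in MyLa, with a median of 0.00, and of 14 genes of sterol uptake, storage and efflux 3 were higher in HH and 0 in MyLa in limma, with a median of 0.11. These are 18.2% and 21.4% higher in HH, near the 16.8% of all genes. Of 20 other fatty acid and glycerolipid genes 4 were higher in HH and 6 in MyLa (30%, against 18.7% of all genes), with a median of 0.03. Among the less wide of these calls, named after their values were seen, ACAT1, CYB5B, LRP8 and ACSL5 were higher in HH and MBTPS2 and OXSM in MyLa. VLDLR, a lipoprotein receptor, was at 2.13 on both MyLa arrays and at 10.14 and 10.09 in HH, at least 34.7-fold higher. SCD5, the second human stearoyl-CoA desaturase, was higher in HH by 13.4-fold, SCARB1, a receptor for high density lipoprotein, by 12.2-fold, the acetyl-CoA carboxylase ACACB by 4.33-fold and the acyl-CoA synthetase ACSL4 by 3.84-fold. All 4 had limma adjusted p under 0.05, and the other probe sets of SCARB1 (3, of which 2 were called) and ACACB (2, both called) pointed the same way. The other probe set of ACSL4 that entered the fit (-0.81) was not called. Higher in MyLa were HACD3, a dehydratase of fatty acid elongation, at 12.58 and 12.49 against 4.17 and 4.33 in HH (at least 185-fold), LPIN2, a relative of LPIN1 (11.3-fold), the desaturase family member FADS3 (7.01-fold), the elongase ELOVL4 (2.43-fold) and MID1IP1, a regulator of acetyl-CoA carboxylase (2.25-fold).

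The second question of the design is what IL-32γ did within a line. With 1 array per condition these differences have no replicate check and no test, and genes at 1.5-fold or more (0.58 in log2) were counted. Few members reached that size. In MyLa 24 members were at 5 or more on at least 1 array, and 1 was higher, FASN (4.17%, against 7.77% of all genes), and 1 lower, SCAP (4.17%, against 7.65%). In HH none of 27 members was higher, against 1.14% of genes, and 2 were lower, SCAP and SREBF1 (7.41%, against 4.46%). The median member difference was -0.13 in MyLa and -0.08 in HH, near the -0.07 of all genes in each line.

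SCAP, the escort of the SREBPs, was lower with IL-32γ in both lines, and it has a single probe set. It read 10.31 without and 9.64 with IL-32γ in MyLa (-0.68), and 10.52 and 9.86 in HH (-0.66), so both IL-32γ values were below both control values. Of 9545 genes measured in both lines, 0.911% were lower by 1.5-fold or more in both. With the lines as replicates and the line as a block, limma gave -0.67 ± 0.11 (SE) for SCAP at an unadjusted p of 0.0062 and an adjusted p of 0.54. In that fit, which has 1 residual degree of freedom, no gene passed an adjusted p of 0.05. At an unadjusted p under 0.05 it had 7.60% of genes lower and 1.54% higher, and SCAP was the 1 member of 28.

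SREBF1 read 8.85 and 8.22 in HH (-0.63), and its second probe set differed by -0.23. With the mean of its probe sets the difference was -0.43, short of 1.5-fold. In MyLa it was below the floor on both arrays. SREBF2 differed by -0.19 in MyLa and -0.23 in HH. FASN in MyLa is a bound, at least 0.61, since it went from below the floor to 5.61, and was 0.53 with quantile values, short of 1.5-fold. In HH it stood at -0.31. TM7SF2 (-0.46) and HSD17B7 (-0.44) came next lowest in MyLa, with -0.19 and -0.14 in HH. Synthesis enzymes called higher in HH and measured on every array differed by less than 1.5-fold with IL-32γ by the brightest probe set. In MyLa and HH, HMGCS1 differed by 0.30 and -0.02, LSS by -0.27 and -0.17 and SQLE by -0.39 and -0.07. SCD differed by -0.14 and 0.01, and ACAT2 by -0.29 and -0.10. DHCR7 and MVD, below the floor in MyLa, differed by -0.26 and -0.06 in HH.

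**Figure D4:**
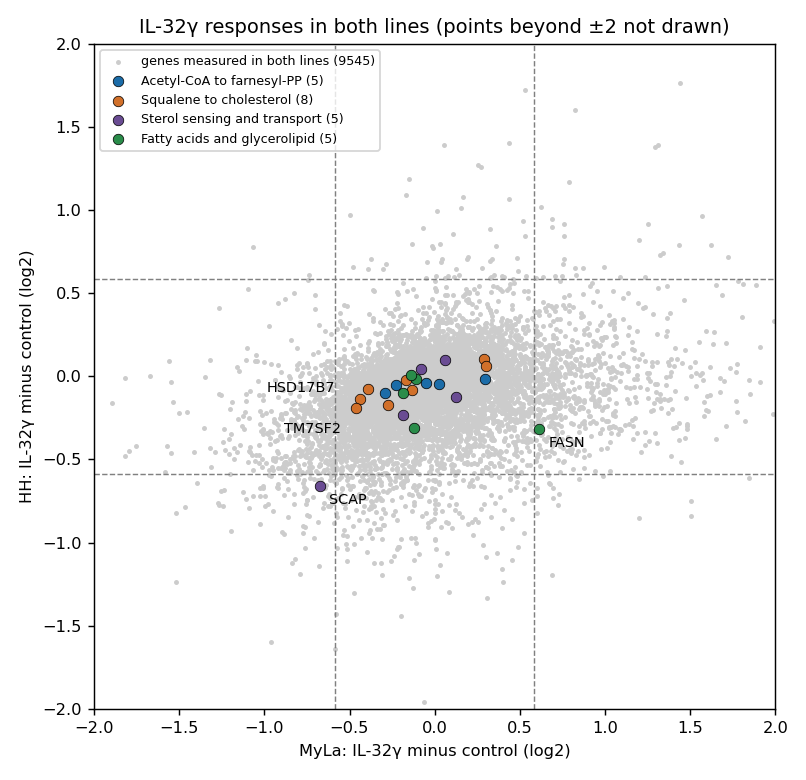
The log2 difference IL-32γ minus control in MyLa (x axis) and HH (y axis) for 9545 genes measured in both lines (grey) and the 23 members among them (coloured by role), with dashed lines at 1.5-fold. SCAP lies past 1.5-fold on the lower side in both lines and FASN past it on the right, and the other members lie inside.

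Probe sets dimmer over the 4 arrays gave larger responses for some members. Counted by probe set, 5 of 41 in MyLa were higher by 1.5-fold or more (12.2%, against 11.2% of all probe sets) and 3 lower (7.32%, against 8.42%). In HH 4 of 56 were higher (7.14%, against 4.68%) and 2 lower (3.57%, against 3.97%). In MyLa, EBP read 11.81 and 12.74 by one such probe set (0.93) and 12.64 and 13.51 by another (0.86), against 0.29 by the brightest. INSIG1 read 7.46 and 6.28 by one (-1.17), with -0.08 and -0.25 by the others. The dim probe set of HMGCS1 gave at least 0.98, and one of IDI1 gave 1.22. For ACLY the others gave -0.64 and -0.50, against -0.19. The first of these was the brighter on the MyLa control array (12.17 against 11.80). In HH, SQLE gave 0.80 by a dim probe set and -0.07 by the brightest. The 5′ ACTB values given above were higher with IL-32γ in each line, and their part in these responses was not tested.

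Among the neighbouring lipid genes, POR, the reductase that feeds electrons to sterol demethylation, read 5.39 and 6.53 in MyLa (1.14), with 0.03 in HH. LPIN2 (0.72) and MID1IP1 (0.61) were also higher in MyLa, and the sterol-responsive receptor gene NR1H3 (-0.94) and the acetoacetyl-CoA synthetase gene AACS (-0.63) lower. The second probe set of LPIN2 gave 0.34. In HH, FADS3 (-1.30) and the acyltransferase gene DGAT1 (-0.73) were lower. By the brightest probe set, none of the 43 measured genes of these lists was higher by 1.5-fold in HH, where 1.14% of all genes were. ACSL4 gave 1.08 in HH by a dimmer probe set and at least 0.59 by another. The second probe set of FADS3 lay near the floor in HH (5.07 and 3.61).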

How the data were processed

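Total RNA of 4 samples, 1 per line and condition, was labelled with biotin and hybridised to arrays. The deposited log2 values per probe set come from GCRMA, per the submitters' processing notes, which corrects background by probe sequence, normalises and summarises. Their range (2.13 to 16.0) showed the log2 scale. The version of GCRMA is not given in the sources used here, nor whether it was run on the 4 arrays jointly.

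Symbols came from the platform annotation, updated through the Entrez identifier (RefSeq, GRCh38.p14). Of the probe sets 41097 had 1 symbol (41043 updated), 1801 had several and 11777 were not listed. The probe set with the highest mean stood for each of 19775 genes. Values below 5 were set to 5. Within a line, genes at 5 or more on at least 1 array were compared with no test. Across arrays, limma 3.58.1 (R 4.3.3) was used on the 11010 genes that reached 5 on 2 arrays or more, for MyLa minus HH without a block (2 residual degrees of freedom) and for IL-32γ with the line as a block (1). Tests were two-sided, with Benjamini-Hochberg adjustment, and the fits were tested on simulated data. "At least" folds compare the brighter line's mean with the floor. The precision is limited by the number of arrays.

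The members and lists were chosen with earlier results of these data known. All members are named, and by rule, of other lipid genes, at most the 5 widest called differences per direction between lines and 3 per direction within a line. ACAT1, CYB5B, LRP8, ACSL5, MBTPS2 and OXSM were named beyond that rule, after their values were seen. Some listed lipid genes were not analysed here. Alternatives were other floors, scalings, probe set rules, thresholds, blocks and leaving out arrays. Motifs were searched, and plots drawn, with Python 3.11.15, pandas 2.3.3 and matplotlib 3.10.9.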

Additional observations from a re-analysis of the deposited data

Results flagged for a closer look

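FASN was flagged because its IL-32γ response went opposite ways in the lines. It was 0.61 in MyLa, a bound since the control array was below the floor of 5, and -0.31 in HH, so the responses differed by at least 0.93 (log2, MyLa minus HH). With quantile values the MyLa response was 0.53, short of 1.5-fold. This difference was not tested, since there is 1 array per line and condition. FASN has 1 probe set above the floor.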

How the results depend on the processing

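The 12 members higher in HH were 11 to 12 under the other floors, no floor, quantile and median-centred values, the mean of the probe sets, each probe set as its own feature, an intensity trend and the treatment as a block, and 18 with no fold minimum. Without probe sets ending in _x_at or _s_at the count was 7, because every probe set of ACAT2, DHCR7, FASN, MVD and SCD ends so. The 7 left were all called. With no floor, FASN was no longer called. Leaving out each array gave 8 to 13 members, and the 4 lost without either HH array (DHCR7, MVD, MVK and SREBF1) then no longer reached 5 on 2 arrays and were not tested. FADS2, higher in MyLa, was not called with a floor of 6 (0.58), so the count was 0, as it was without _x_at and _s_at probe sets, while leaving out each array gave 0 to 1. With no fold minimum 2 members were higher in MyLa, and 6170 genes were called in place of 3907. Differences near 0 changed sign for IDI1 with the mean of its probe sets (0.019), and on leaving out each array for INSIG2 (-0.11 to 0.020, above 0 without either control array) and SCAP (-0.55 to 0.12, above 0 without the MyLa IL-32γ or the HH control array).

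SCAP has a single probe set, above every floor tried, so the floors and probe set rules could not change its responses. It stayed past 1.5-fold lower in both lines with quantile values (-0.68 in MyLa, -0.65 in HH) and median-centred values (-0.68 and -0.64). It did not reach a 2-fold threshold. Members higher in MyLa with IL-32γ, 1 as reported, were 0 with a floor of 6, with quantile values, without _x_at and _s_at probe sets and at 2-fold, 2 with no floor and at a lower fold threshold, and 3 with the mean of the probe sets. Those lower in MyLa were 4 at that lower threshold and 0 at 2-fold. In HH 2 members were higher with the mean of the probe sets and 1 without _x_at and _s_at probe sets, and 0 were lower at 2-fold. Members at an unadjusted p under 0.05 for IL-32γ across lines in limma were 5 with no floor, 3 with the mean of the probe sets or each probe set as its own feature, 2 with an intensity trend and 0 with no block, and none passed the adjusted threshold in any of these. SREBF1 in HH was no longer past 1.5-fold with the mean of its probe sets (-0.43). The labels give no replicate numbers, so arrays could be paired only by line or by treatment. The blocks used are the line, for IL-32γ, and the treatment, for the lines, which left 12 members higher in HH and 1 in MyLa.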
